A study of Homo sapiens with 6 samples.

Results

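The mammalian-wide LINE1 subfamilies whose names start with L1M, together with the HAL1 elements, were described in total RNA of the H9 line of human embryonic stem cells. Members were all row names of the repeat count table that start with L1M or HAL1 and that also appear in the CPM table, which gave 92 of 15600 entries. They fall by name into 12 L1MA, 7 L1MB, 11 L1MC, 6 L1MD, 27 L1ME and 25 other L1M subfamilies and 4 HAL1 elements. The libraries form 3 groups of 2. RSeT+DT cells were grown in RSeT, a commercial medium for a naive-like state, with DZNep at 10 nM and TSA at 5 nM for 48 hours. RSeT cells were grown in the same medium without these agents, and primed cells in mTeSR. DZNep inhibits S-adenosylhomocysteine hydrolase and thereby lowers EZH2, the enzyme of the Polycomb complex PRC2, and TSA (trichostatin A) inhibits histone deacetylases. All 6 libraries come from this 1 line, no vehicle-treated group was analysed here, and the labels do not say whether replicates came from separate cultures, so the spread between replicates may be technical.

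LINE1 elements are retrotransposons that copy themselves through an RNA and a reverse transcriptase encoded by the element. The L1M subfamilies are named as mammalian-wide, and in this naming L1MA is the youngest and L1ME among the oldest. Their copies are truncated and mutated, they can no longer move, and many lie in introns and long non-coding transcripts, so reads on them also come from host transcripts. HAL1 is a related element that kept the first open reading frame of LINE1 and lacks the reverse transcriptase. MIR and L2, an ancient SINE and LINE, are likewise widespread in introns and serve below as a yardstick.

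The RSeT+DT libraries held 13064045 and 11520770 repeat counts, the RSeT libraries 38312112 and 17191110, and the primed libraries 16838730 and 13628911. Every member had at least 193 counts in every library and all 92 passed the filter on low counts. HERVK-int, the internal part of an endogenous retrovirus tied to naive-like cells, stood at 16530 and 17480 CPM in RSeT+DT cells, at 20070 and 19229 CPM in RSeT cells and at 335.8 and 344.5 CPM in primed cells. LTR5_Hs and LTR7Y are further markers of such cells. LTR5_Hs stood at 4247 and 3998 CPM in RSeT+DT, 4019 and 3974 in RSeT, and 327.3 and 364.7 in primed cells. LTR7Y stood at 72.0 and 73.2 CPM in RSeT+DT, 62.2 and 61.5 in RSeT, and 28.9 and 32.7 in primed cells. With TMM, the log2 fold change of RSeT+DT over RSeT was -0.056 for HERVK-int, 0.20 for LTR5_Hs and 0.38 for LTR7Y. HERVH-int, a marker of pluripotent cells, stood at 118627 and 114855 CPM in RSeT+DT, at 73442 and 75615 CPM in RSeT and at 23829 and 26519 CPM in primed cells, so every library carried it. The 8-cell stage repeats MLT2A1, MLT2A2, HERVL-int and LTR7B lay between 195.8 and 774.8 CPM in all libraries. With TMM, their log2 fold changes of RSeT over primed cells were 0.19, 0.46, 0.36 and 0.087 in that order. Those of RSeT+DT over RSeT were -0.24, -0.0058, -0.32 and -0.044. Genes were not analysed here, so markers of other cell types could be read only from LTRs. Of the 4 LTRs used in trophoblast, LTR17 stood at 577.2 and 545.7 CPM in RSeT+DT, at 451.8 and 455.4 CPM in RSeT and at 165.6 and 171.0 CPM in primed cells. LTR10A stood at 41.3 and 36.3 CPM in RSeT+DT, at 48.8 and 52.8 CPM in RSeT and at 60.6 and 65.7 CPM in primed cells. MER21A stood at 223.6 and 226.5 CPM, 293.9 and 314.7 CPM and 328.8 and 345.8 CPM in the same groups. In deposited CPM both ran in the order opposite to LTR17. With TMM, the log2 fold change of RSeT over primed cells was -0.19 for LTR10A and -0.018 for MER21A. That of RSeT+DT over RSeT was -0.22 for LTR10A and -0.28 for MER21A. MER41B stood at 192.1 and 205.6 CPM in RSeT+DT, at 236.9 and 245.5 CPM in RSeT and at 196.8 and 207.7 CPM in primed cells. With TMM, its log2 fold change of RSeT+DT over primed cells was 0.26. The part of such cells in the results below was not tested. In bulk RNA, fewer cells that express an element and less RNA per cell cannot be told apart.

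The members together held 5.87 and 6.40% of repeat counts in RSeT+DT cells, 8.48 and 8.46% in RSeT cells and 7.69 and 8.08% in primed cells. The RSeT+DT libraries thus lay below all others, and the RSeT libraries above the primed ones. The order was the same for the sums of L1MA, L1MB, L1MD and L1ME. L1MA held 0.640 and 0.707% in RSeT+DT, 0.986 and 0.986% in RSeT and 0.776 and 0.806% in primed cells. L1ME, the subgroup with the most counts, held 1.69 and 1.87% in RSeT+DT, 2.56 and 2.53% in RSeT and 2.40 and 2.51% in primed cells. The L1MC sum of the RSeT libraries, 1.31% in each, lay between the primed libraries at 1.25 and 1.32%. HAL1 was highest in primed cells, with 0.325 and 0.347% in RSeT+DT, 0.463 and 0.470% in RSeT and 0.474 and 0.495% in primed cells. The other L1M subfamilies held 1.22 and 1.28% in RSeT+DT, 1.45 and 1.44% in RSeT and 1.22 and 1.28% in primed cells, and without L1M2 0.869 and 0.947% in RSeT+DT, 1.21 and 1.20% in RSeT and 1.05 and 1.10% in primed cells. These sums were given without a test. An exact two-sided permutation test of 2 against 2 libraries cannot go below p = 0.33.

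**Figure D1:**
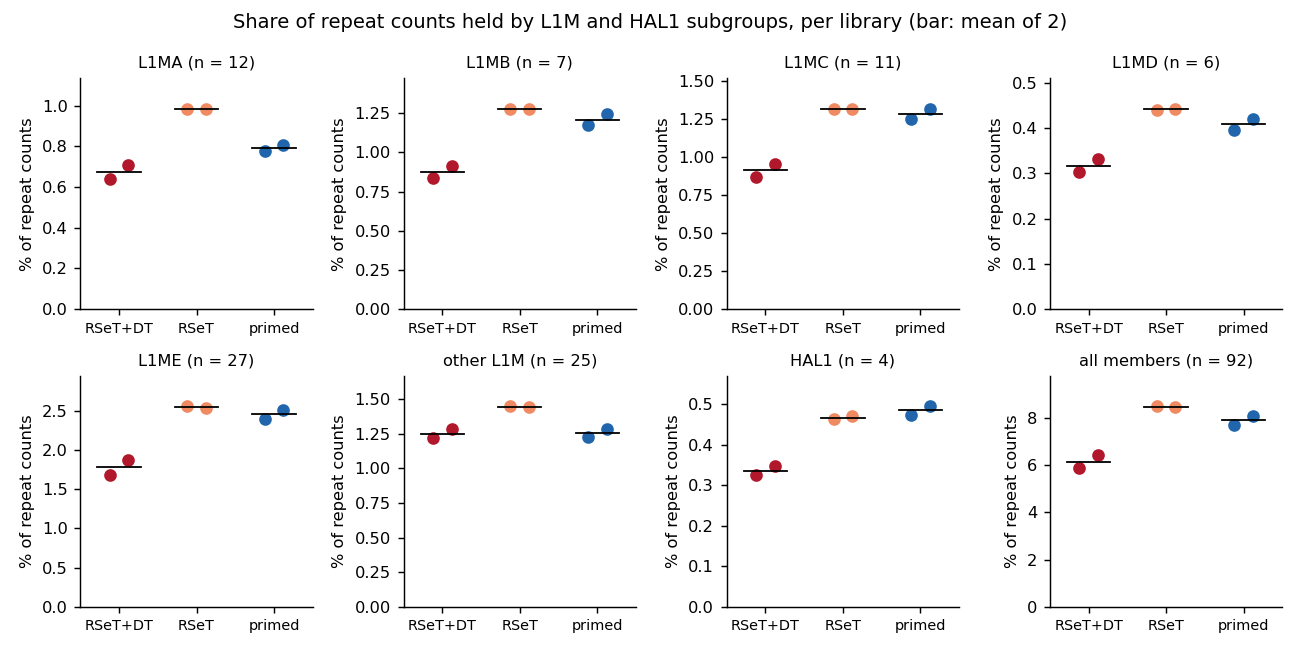
Percentage of all repeat counts (deposited CPM divided to percent, y axis from 0) held by each subgroup and by all 92 members, with 1 point per library and a bar at the mean of 2. All 7 subgroups are lower in RSeT+DT than in RSeT, for example the other L1M subfamilies at 1.22 and 1.28% in RSeT+DT against 1.45 and 1.44% in RSeT.

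A share depends on everything else that was counted, and other repeats moved strongly between these groups. Single subfamilies were therefore tested with edgeR's quasi-likelihood test over 4665 features with TMM factors, with Benjamini-Hochberg adjustment at 0.05, and levels of members below are TMM-scaled CPM. The same test was run with RLE factors, with library totals, with scaling on interspersed repeats and satellites alone (interspersed scaling), and with each library divided by its counts on MIR and L2. The last of these asks directly whether a member changed relative to MIR and L2. MIR and L2 held 7.74 and 8.01% of repeat counts in RSeT+DT, 9.94 and 10.2% in RSeT and 10.9 and 11.5% in primed cells. Relative to TMM, interspersed scaling moved the median log2 fold change of RSeT+DT over RSeT by 0.22, that of RSeT over primed cells by -0.16 and that of RSeT+DT over primed cells by 0.06. Division by MIR and L2 moved these medians by 0.20, 0.02 and 0.22, and library totals moved them by -0.15, -0.13 and -0.28.

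The first comparison, RSeT+DT against RSeT, asks what 48 hours of DZNep and TSA changed. Most L1M and HAL1 subfamilies fell below their RSeT level, while L1M2, L1M4c and L1MDb rose. Of 92 members 81 fell and 3 rose, against a background of 17.4% of all features lower and 25.0% higher, and of 51.7% lower and 5.75% higher among the 1044 interspersed repeats outside the members. The median log2 fold change was -0.36 over the members, 0.027 over all features, -0.21 over the other interspersed repeats and -0.22 over the 12 MIR and L2 entries tested. Relative to MIR and L2, 65 members were lower and 7 higher, where 6.56% of all features were lower and 35.4% higher, and 16.0% of the other interspersed repeats lower and 18.4% higher. With interspersed scaling 66 members were lower and 9 higher, against 20.7% lower and 22.6% higher of all features in that fit, and 16.1% lower and 23.5% higher of the other interspersed repeats. With library totals 87 were lower and 1 higher, against 24.8% and 16.9% of all features and 71.2% and 2.30% of the other interspersed repeats. Under all 5 scalings 63 members were lower, against 15.3% of the other interspersed repeats, and L1M2 was the single member that was higher, against 2.30%. The 63 included 10 of 12 L1MA, 6 of 7 L1MB, 10 of 11 L1MC, 4 of 6 L1MD, 20 of 27 L1ME, 11 of 25 other L1M subfamilies and 2 of 4 HAL1 elements. Members carry more counts than most repeats, with a median of 10556 per library against 997.8 over the other interspersed repeats, and what depth adds to their share of calls was not tested. Against a minimum of 1.5-fold no member was called, where 1.24% of all features were higher and 0.322% lower.

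L1M2, a subfamily named outside the L1MA to L1ME letters, stood at 3903 and 3615 CPM in RSeT+DT, against 2408 and 2394 CPM in RSeT cells. The rise was 1.57-fold (log2 fold change 0.65, SE 0.041, edgeR adjusted p = 4.65e-12). It was 0.49 with library totals and 0.85 relative to MIR and L2, with a call in each. Per 1000 counts on MIR and L2, L1M2 had 44.8 and 41.5 counts in RSeT+DT, 24.3 and 23.6 in RSeT and 16.0 and 15.8 in primed cells. It thus made up 5.90 and 5.19% of all member counts in RSeT+DT, 2.85 and 2.85% in RSeT and 2.26 and 2.25% in primed cells. Its counts are summed over all genomic copies, so whether many copies or a few moved was not tested.

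L1M4c stood at 1466 and 1517 CPM in RSeT+DT, against 1285 and 1246 CPM in RSeT cells. The log2 fold change was 0.24 (SE 0.044, edgeR adjusted p = 7.35e-05). With library totals the value was 0.084 and did not pass, with deposited CPM of 1301 and 1394 in RSeT+DT and of 1289 and 1253 in RSeT cells. L1MDb stood at 189.5 and 187.5 CPM in RSeT+DT, against 165.3 and 171.0 CPM in RSeT cells (0.17, SE 0.040, edgeR adjusted p = 0.00145). With library totals it stood at 0.013 and did not pass. Relative to MIR and L2 both rose, by 0.44 and 0.37 on the log2 scale. L1MDb stood apart from its subgroup, since L1MD, L1MD1, L1MD2, L1MD3 and L1MDa fell by between 0.29 and 0.46 on the log2 scale with TMM.

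**Figure D2:**
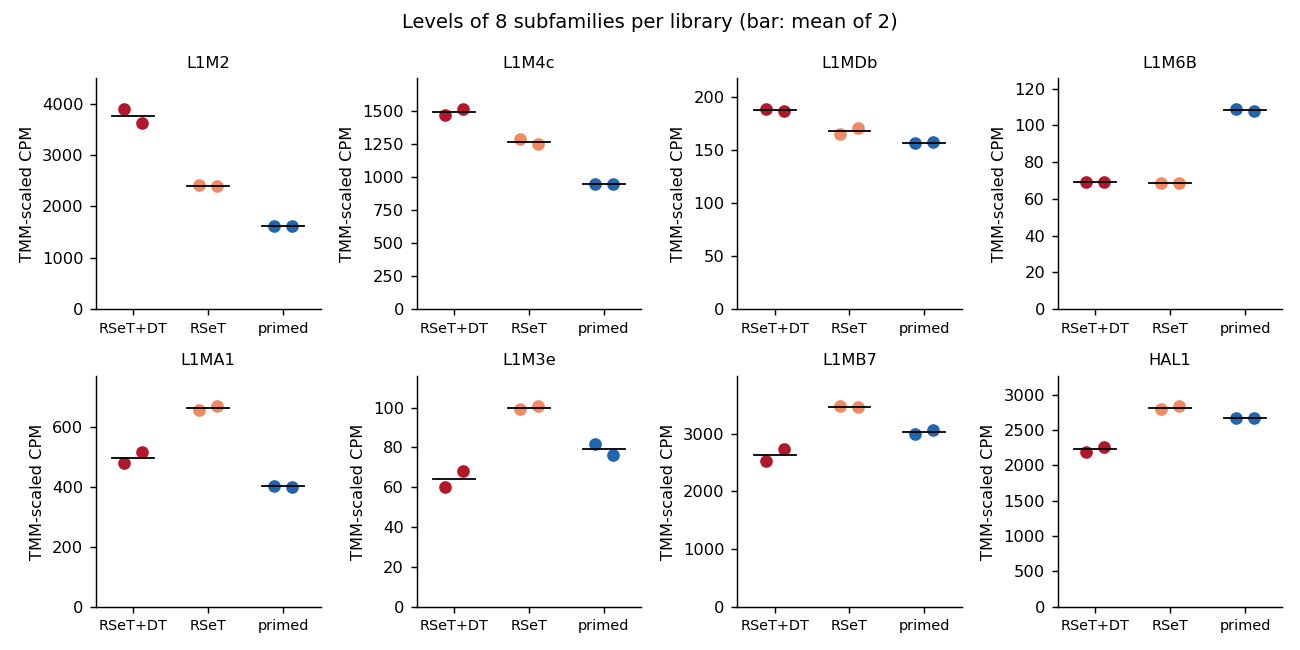
TMM-scaled CPM (y axes from 0) of 8 subfamilies, with 1 point per library and a bar at the mean of 2. L1M2, L1M4c and L1MDb are highest in RSeT+DT, L1M6B is highest in primed cells, and L1MA1, L1M3e, L1MB7 and HAL1 are highest in RSeT.

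The largest falls were in L1M3e, which stood at 60.2 and 68.2 CPM in RSeT+DT, against 99.4 and 100.7 CPM in RSeT cells (log2 fold change -0.64, SE 0.060). The entry L1M stood at 22.6 and 26.8 CPM in RSeT+DT, against 36.5 and 36.5 CPM in RSeT cells (-0.57, SE 0.088). L1MA6 stood at 366.8 and 382.2 CPM in RSeT+DT, against 551.4 and 546.0 CPM in RSeT cells (-0.55, SE 0.043). None of these 3 overlapped between the groups, which the rule for naming them required and which held for 89 of 92 members. The share of all features without overlap was not counted. All 3 were lower under each of the 5 scalings. L1MA5A (-0.52), L1M4a2 (-0.50), L1ME3E (-0.48) and L1MB1 (-0.48) followed, each with a call under all 5 scalings. L1M2b stood at 17.8 and 18.5 CPM in RSeT+DT, against 23.9 and 26.6 CPM in RSeT cells (-0.46, SE 0.11), and did not pass relative to MIR and L2 (-0.26) or with interspersed scaling (-0.24). L1M2b and L1M2 thus moved apart although their names place them together. L1M2c fell by 0.44 on the log2 scale, and L1M2a fell by 0.10 with TMM and rose by 0.11 with interspersed scaling. These 2 are named here after their values were seen.

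The member with the most counts of each subgroup fell by similar amounts. L1MB7 stood at 2533 and 2727 CPM in RSeT+DT, against 3477 and 3459 CPM in RSeT cells (log2 fold change -0.40, SE 0.040). L1ME1 stood at 2376 and 2544 CPM in RSeT+DT, against 3284 and 3247 CPM in RSeT cells (-0.41, SE 0.040). The treated libraries of both lay below the RSeT libraries. L1M5 (-0.36), L1MC4 (-0.36), L1MD2 (-0.34) and L1MA3 (-0.34) also fell, each with a call under all 5 scalings.

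All 4 HAL1 elements fell, with a median of -0.32, close to the -0.33 of the other L1M subfamilies, where 19 of 25 fell and 2 rose. The medians were -0.41 for L1MA and -0.40 for L1MB, and differences between subgroups were not tested. HAL1 itself stood at 2190 and 2263 CPM in RSeT+DT, against 2791 and 2837 CPM in RSeT cells (-0.34, SE 0.038, edgeR adjusted p = 7.41e-08). HAL1b (-0.34), HAL1M8 (-0.31) and HAL1ME (-0.28) fell with TMM. With interspersed scaling HAL1M8 (-0.089) and HAL1ME (-0.065) did not pass, and HAL1ME did not pass relative to MIR and L2 (-0.083).

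With TMM 8 members did not pass in this comparison, namely L1ME3C, L1ME3D, L1MEa, L1MEg1, L1M2a1, L1M3d, L1M3de and L1M6B. L1ME3C (-0.10), L1ME3D (-0.033) and L1MEg1 (-0.045) were lower with a call with library totals and higher with a call with interspersed scaling. Their direction in RSeT+DT therefore rests on the scaling. The L1ME members that did pass lay between -0.48 and -0.23.

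**Figure D3:**
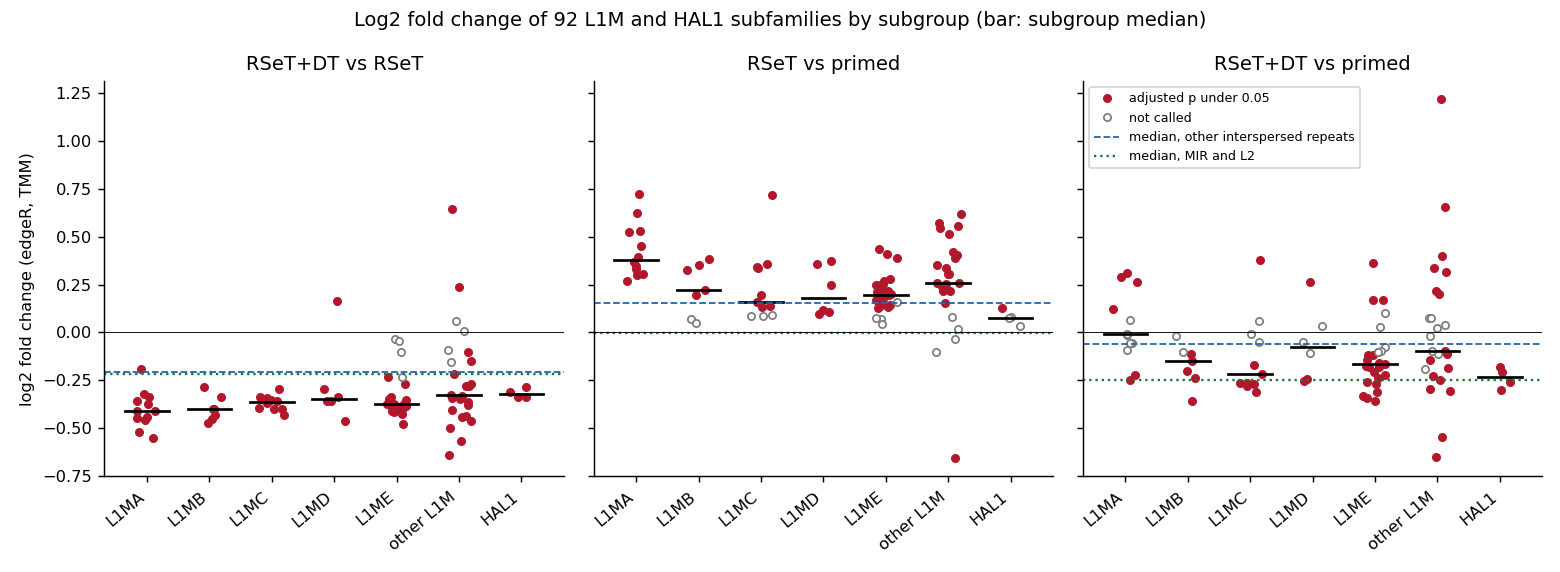
Log2 fold change (edgeR, TMM) of each of the 92 members by subgroup in the 3 comparisons, with called members filled, uncalled members open and subgroup medians as bars. In RSeT+DT against RSeT the subgroup medians lie between -0.41 and -0.32, below the medians of other interspersed repeats (dashed, -0.21) and of MIR and L2 (dotted, -0.22), and L1M2 is the highest point at 0.65.

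RSeT against primed cells compares the naive-like with the primed culture. With TMM most L1M subfamilies were higher in RSeT, with the largest subgroup median in L1MA, and 1 of 4 HAL1 elements passed the test. Only in L1MA did every member rise under all 5 scalings. With interspersed scaling the medians were 0.22 for L1MA, 0.060 for L1MB, 0.00046 for L1MC and 0.021 for L1MD. They were 0.035 for L1ME, 0.099 for the other L1M subfamilies and -0.084 for HAL1. Of 92 members 75 rose and 1, L1M6B, fell, against a background of 22.8% of all features higher and 23.8% lower, and of 48.1% higher and 8.62% lower among the other interspersed repeats. The median was 0.24 over the members, -0.030 over all features, 0.15 over the other interspersed repeats and -0.0048 over MIR and L2. Relative to MIR and L2 79 members rose and 1 fell, where 23.5% of all features rose and 22.0% fell, and 49.7% of the other interspersed repeats rose and 7.28% fell. With interspersed scaling 44 members rose and 13 fell, against 30.0% and 26.5% of all features in that fit and 28.2% and 27.4% of the other interspersed repeats. With library totals 36 rose and 3 fell, against 14.6% and 32.9% of all features and 28.3% and 18.0% of the other interspersed repeats. Under all 5 scalings 36 members rose, against 27.8% of the other interspersed repeats, and L1M6B fell, against 7.09%. The 36 included all 12 L1MA subfamilies but 3 of 7 L1MB, 4 of 11 L1MC, 2 of 6 L1MD, 4 of 27 L1ME and 11 of 25 other L1M subfamilies and no HAL1 element.

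The subgroup medians were 0.38 for L1MA, 0.22 for L1MB, 0.16 for L1MC, 0.18 for L1MD, 0.20 for L1ME, 0.26 for the other L1M subfamilies and 0.078 for HAL1. Across the 63 lettered L1M subfamilies, log2 fold change and the order of letters had a Spearman's rho of -0.40, where subfamilies share libraries and reads. The same rho was 0.22 in RSeT+DT against RSeT and -0.23 in RSeT+DT against primed cells. From L1MB to L1ME the medians did not fall steadily with the letter. L1MA1, the youngest by name, stood at 658.0 and 670.7 CPM in RSeT, against 403.5 and 401.5 CPM in primed cells. This was a rise of 1.65-fold (log2 fold change 0.72, SE 0.045, edgeR adjusted p = 7.76e-13). It also passed against a minimum of 1.5-fold, as 4.97% of all features did upward and 6.22% downward. L1MA3 stood at 1510 and 1521 CPM in RSeT, against 981.6 and 984.2 CPM in primed cells (0.62, SE 0.044). L1MA2 (0.53) and L1MA4A (0.53) followed, and L1MA4 to L1MA9 other than L1MA4A lay between 0.27 and 0.39. L1MA10 stood apart from its neighbours in number at 0.45. Across the 10 L1MA subfamilies with a plain number, rho between number and log2 fold change was -0.60 in this comparison. It was 0.48 in RSeT+DT against RSeT, which shares the RSeT libraries, and -0.30 in RSeT+DT against primed cells.

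**Figure D4:**
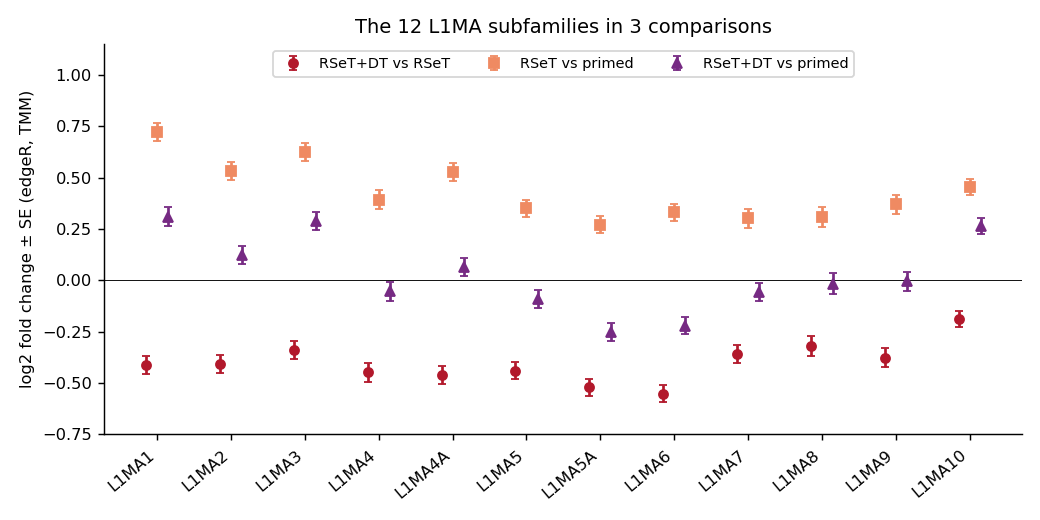
Log2 fold change ± SE (edgeR, TMM) of the 12 L1MA subfamilies in the order of their names. RSeT against primed cells runs between 0.27 and 0.72 with L1MA1 on top, RSeT+DT against RSeT between -0.55 and -0.19 with L1MA6 lowest, and RSeT+DT against primed cells between -0.25 and 0.31.

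Outside L1MA, the largest rise was in L1MCb, which stood at 149.3 and 148.8 CPM in RSeT, against 88.4 and 93.2 CPM in primed cells (log2 fold change 0.72, SE 0.047). It passed against a minimum of 1.5-fold. The other L1MC subfamilies lay between 0.085 and 0.36, so L1MCb stood apart from its subgroup. L1M1 stood at 1528 and 1570 CPM in RSeT, against 1001 and 1017 CPM in primed cells (0.62, SE 0.044). L1M2 stood at 2408 and 2394 CPM in RSeT, against 1609 and 1617 CPM in primed cells (0.57, SE 0.041). L1M3 (0.55, SE 0.046) and L1M2a1 (0.55, SE 0.10) rose to a similar degree. These members also rose under each of the other 4 scalings.

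L1M6B was the one member that fell. It stood at 68.9 and 68.6 CPM in RSeT, against 109.1 and 107.7 CPM in primed cells (log2 fold change -0.66, SE 0.049, edgeR adjusted p = 2.67e-11). The fall was between 0.63 and 0.82 on the log2 scale over the 5 scalings. L1M6, its nearest relative by name, rose by 0.16 with TMM, whereas its value of -0.0045 with interspersed scaling did not pass. It was looked up after the fall of L1M6B was seen.

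HAL1 stood at 2791 and 2837 CPM in RSeT, against 2666 and 2664 CPM in primed cells (log2 fold change 0.078, SE 0.038, edgeR adjusted p = 0.0959). It did not pass with TMM, but did at 0.078 without RSeT+DT replicate 1 and at 0.080 without RSeT+DT replicate 2, libraries outside this comparison that share its estimate of spread. It rose relative to MIR and L2 (0.096) and fell with interspersed scaling (-0.083). HAL1ME stood at 0.077 and HAL1b at 0.036, neither passing, and both fell with interspersed scaling (-0.084 and -0.13). With RLE, by contrast, HAL1 (0.10), HAL1ME (0.10) and HAL1M8 (0.16) rose. HAL1M8 rose by 0.13 with TMM, but this call was lost when RSeT replicate 2 (0.11), primed replicate 1 (0.12) or primed replicate 2 (0.14) was left out. A direction for HAL1 elements between RSeT and primed cells could not be read apart from the scaling. L1MC4 showed the same dependence, at 0.085 with TMM, not passing, though it passed when RSeT+DT replicate 1 (0.085) or 2 (0.087) was left out and with RLE (0.11), 0.10 with a call relative to MIR and L2 and -0.077 with a call with interspersed scaling. Among the other leading members, L1MD2 (0.37), L1ME1 (0.25), L1M5 (0.21) and L1MB7 (0.20) rose with TMM, of which only L1MD2 rose under all 5 scalings.

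RSeT+DT against primed cells compares the treated naive-like cells with the primed culture. With TMM 49 members fell and 16 rose, against a background of 20.6% of all features lower and 25.1% higher, and of 32.7% lower and 25.0% higher among the other interspersed repeats. The median was -0.12 over the members, -0.0089 over all features, -0.061 over the other interspersed repeats and -0.25 over MIR and L2. The split turned with the scaling. Library totals gave 77 members lower and 2 higher, against 38.3% and 13.1% of all features and 59.1% and 11.2% of the other interspersed repeats. Interspersed scaling gave 43 lower and 23 higher, against 29.6% and 32.2% of all features in that fit and 28.1% and 32.7% of the other interspersed repeats. Division by MIR and L2 gave 6 lower and 44 higher, against 9.65% and 37.5% of all features and 7.57% and 46.1% of the other interspersed repeats. Of the members, 29 were higher with a call under 1 scaling and lower with a call under another. How often other repeats turned in this way was not counted, so this number is not a trait shown for the members.

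L1M2 and L1M4c were higher under all 5 scalings, as were 11.2% of the other interspersed repeats. L1M2 stood at 3903 and 3615 CPM in RSeT+DT, against 1609 and 1617 CPM in primed cells, a rise of 2.33-fold (log2 fold change 1.22, SE 0.041, edgeR adjusted p = 2.23e-18) that also passed against a minimum of 1.5-fold, as 6.75% of all features did upward and 4.65% downward. L1M4c stood at 1466 and 1517 CPM in RSeT+DT, against 945.1 and 949.1 CPM in primed cells (0.66, SE 0.044). L1M2a1 (0.40), L1MCb (0.38), L1MEg1 (0.36), L1M1 (0.34), L1M3de (0.32) and L1MA1 (0.31) also rose with TMM, but with library totals they lay between 0.026 and 0.12 and did not pass. L1MA3 rose by 0.29 with TMM and stood at 0.0027 with library totals, not passing.

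Lower under all 5 scalings were L1M6B, L1M, L1MB3, L1ME2z, L1ME4c and L1ME3B, and 7.57% of the other interspersed repeats. L1M6B stood at 69.0 and 69.4 CPM in RSeT+DT, against 109.1 and 107.7 CPM in primed cells (log2 fold change -0.65, SE 0.054). With TMM its treated libraries lay close to the RSeT libraries at 68.9 and 68.6 CPM. The log2 fold change of RSeT+DT over RSeT was then 0.0092 and did not pass. With library totals it was -0.14, not passing. L1M6B was called higher in RSeT+DT than in RSeT with interspersed scaling (0.23) and relative to MIR and L2 (0.21). L1MB3 stood at 1632 and 1711 CPM in RSeT+DT, against 2109 and 2177 CPM in primed cells (-0.36, SE 0.041). L1M (-0.55), L1ME2z (-0.36), L1ME4c (-0.35) and L1ME3B (-0.33) fell likewise. L1ME3E (-0.31) and L1MC5 (-0.31) fell with TMM and did not pass relative to MIR and L2 (-0.091 and -0.089). All 4 HAL1 elements fell with TMM, between -0.30 and -0.18, and none of the 4 passed relative to MIR and L2, where they lay between -0.083 and 0.041. The leading members L1MC4 (-0.28), L1MB7 (-0.20), L1ME1 (-0.16) and L1M5 (-0.15) fell with TMM, whereas relative to MIR and L2 they lay between -0.057 and 0.074 and none passed. L1MD2 (0.035) did not pass with TMM.

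**Figure D5:**
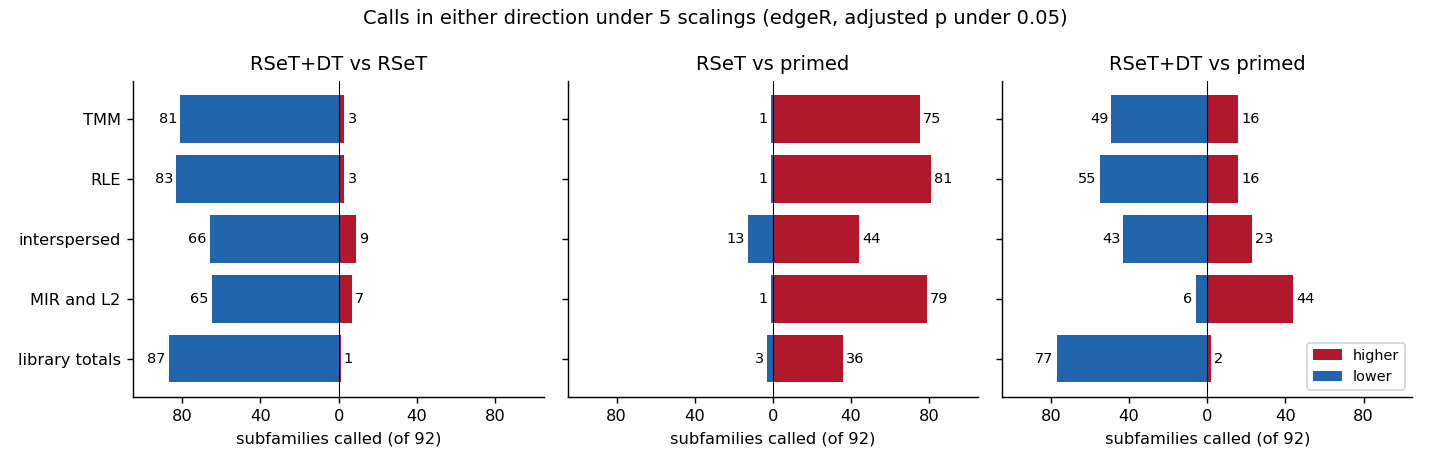
Number of the 92 members called higher (right, red) and lower (left, blue) by edgeR at an adjusted p under 0.05 under 5 scalings. Most calls of RSeT+DT against RSeT are lower under each scaling, with 65 to 87 lower and 1 to 9 higher, whereas RSeT+DT against primed cells runs between 2 higher with 77 lower (library totals) and 44 higher with 6 lower (MIR and L2).

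Taking the mean TMM-scaled level of each group, 64 of the 92 members were highest in RSeT and lowest in RSeT+DT, and 21 were highest in RSeT and lowest in primed cells. How the other interspersed repeats divide over these orders was not counted, so the orders are not shown to be particular to the members. Which of RSeT+DT and primed cells came lowest rests on the scaling for many of them, since TMM called 49 members lower in RSeT+DT than in primed cells and division by MIR and L2 called 6. L1MDb, L1M2, L1M3de and L1M4c were highest in RSeT+DT and lowest in primed cells. For L1M3de the step between RSeT+DT and RSeT (0.057) did not pass with TMM. It was called higher with interspersed scaling (0.28) and relative to MIR and L2 (0.26), and was -0.096 with library totals, not passing. L1M3a and L1M3d were highest in primed and lowest in RSeT+DT cells, with differences between RSeT and primed cells (-0.036 and -0.10) that did not pass. L1M6B was the one member highest in primed and lowest in RSeT cells. Its step between RSeT+DT and RSeT (0.0092) did not pass with TMM, and its mean deposited CPM was lower in RSeT+DT (62.5) than in RSeT (69.0). The step was called higher with interspersed scaling (0.23) and relative to MIR and L2 (0.21). Spearman's rho between log2 fold change and mean CPM over the 92 members lay between -0.18 and -0.12 in the 3 comparisons, again a description over subfamilies that share libraries.

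The primate LINE1 subfamilies give the nearest comparison. In RSeT+DT against RSeT, the median was -0.37 over the 9 youngest (L1HS and L1PA2 to L1PA8A), with 2 higher and 7 lower, and -0.39 over 30 older primate subfamilies, with 26 lower, where the L1M and HAL1 members had -0.36 and 81 of 92 lower. In RSeT against primed cells, the medians were 0.55 over the youngest and 0.48 over the older primate subfamilies, and the members, at 0.24, lay between these and MIR and L2. L1MA, at 0.38, was the L1M subgroup nearest to the primate subfamilies. In RSeT+DT against primed cells the medians were 0.12 and 0.17 over the primate lists, against -0.12 over the members. The differences between these lists were not tested.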

How the data were processed

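Total RNA of 6 H9 libraries in 3 groups of 2 was sequenced with a stranded kit, per the labels' protocols. The authors deposited raw counts per repeat name, summed over genomic copies, and CPM for entries with a total of at least 10 counts, 7383 of 15600. Recomputing CPM from the counts of the listed entries gave the deposited values within 0.00442. The submitters' processing notes name GRCh38/hg38, STAR 2.7.8a, Trimmomatic 0.39, Subread 2.14.2 and featureCounts. Not given in the sources used here are the repeat annotation and the handling of multi-mapping reads and strand, so neighbouring subfamilies may share reads and sense and antisense RNA cannot be told apart. No coordinates or consensus sequences were used.

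Counts were tested with edgeR 4.0.16 (R 4.3.3; quasi-likelihood, all 6 libraries, group as the only term, 3 residual degrees of freedom), after filterByExpr with a minimum of 10 counts and a total of 15. TMM-scaled CPM are counts divided by library total times TMM factor, on the CPM scale, and each SE is the log2 fold change over the square root of F. The common biological coefficient of variation was 5.49%. Replicates differed by more than sampling noise over the members, with chi-square over its degrees of freedom at 6.38 for the RSeT+DT pair, 3.36 for the RSeT pair and 1.92 for the primed pair. On simulated counts for RSeT+DT against RSeT over 4665 features, 28% of 50 features changed by 0.25 on the log2 scale were recovered, 66% at 0.5 and 96% at 1. The shares were 16%, 62% and 94% for RSeT against primed cells, and 10%, 60% and 98% for RSeT+DT against primed cells. The changed features were drawn from tested features of all kinds above a low limit on counts. All simulated features had the common coefficient of variation. Recovery at the depth of the members was not simulated, so these shares do not give it. Alternatives included DESeq2 1.42.0, limma 3.58.1 on log2(CPM + 1 or 0.1), filters, a replicate block and each library left out.

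Members and lists were chosen with earlier results of these data known. Named members are, per comparison, the member with the most CPM of each subgroup, all HAL1 elements, up to 8 largest rises and 8 largest falls that pass without overlap of TMM-scaled CPM, and up to 5 called against the majority, all with a mean count of at least 50. Others appear as ranges or where their position is stated.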

Additional observations from a re-analysis of the deposited data

How the results depend on the processing

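In RSeT+DT against RSeT, the number of members higher was 3 with TMM and 1 with library totals, 9 with interspersed scaling, 7 relative to MIR and L2, 1 in limma with either pseudocount (1 or 0.1) and 0 against a minimum of 1.5-fold, which also left 0 lower. In RSeT against primed cells, library totals gave 36 higher and 3 lower, interspersed scaling 44 and 13, limma 35 and 3 with either pseudocount, and the minimum of 1.5-fold 2 and 0, against 75 and 1. In RSeT+DT against primed cells, library totals gave 2 higher and 77 lower, limma 2 and 77 with either pseudocount, division by MIR and L2 44 and 6, and the minimum of 1.5-fold 1 and 0, against 16 and 49. By construction, limma on deposited CPM has no TMM factor and follows library totals.

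The summed level of all members, as log2 ratio of deposited CPM, was -0.46, 0.10 and -0.36 in the 3 comparisons in that order. For RSeT against primed cells it was 0.068 without primed replicate 1 and 0.14 without primed replicate 2. It was -0.35, 0.26 and -0.091 with RLE, and -0.31, 0.24 and -0.076 with TMM, an alternative chosen after seeing the data. It was -0.11, 0.25 and 0.14 relative to MIR and L2, and -0.093 and -0.018 for RSeT+DT against RSeT and against primed cells with interspersed scaling. Per count on MIR and L2, the summed log2 ratios of RSeT+DT over RSeT were -0.19 for L1MA, -0.12 for HAL1 and 0.14 for the other L1M subfamilies, and those of RSeT+DT over primed cells were 0.27, -0.024 and 0.50. Without L1M2 the values of the other L1M subfamilies were -0.050 and 0.26.

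Directions of single named members turned as follows. In RSeT against primed cells, interspersed scaling gave L1MC4 -0.077, HAL1 -0.083, HAL1M8 -0.032, HAL1ME -0.084 and HAL1b -0.13. L1MC4, HAL1 and HAL1ME, not called with TMM, were called higher with RLE, with DESeq2 and in a fit of the 2 groups alone. HAL1M8 also stood at -0.0019 with library totals and at -0.0012 (pseudocount 1 or 0.1) in limma. In RSeT+DT against primed cells, L1MB7 (0.018), L1ME1 (0.061), L1M5 (0.074), HAL1M8 (0.041) and HAL1ME (0.013) turned upward relative to MIR and L2, and L1MD2 turned to -0.25 with library totals and in limma.

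No replicate pairing was used, since deviations of same-numbered libraries correlated at 0.050, 0.0015 and -0.040 over all features. Over the members they correlated at -0.14, 0.039 and -0.12. With the replicate block, the fit gave 3 higher and 81 lower, 75 and 1, and 16 and 52 in the 3 comparisons, and no named member's call changed. Leaving out single libraries gave 80 to 81 lower in RSeT+DT against RSeT, 65 to 81 higher in RSeT against primed cells, and 15 to 18 higher and 40 to 51 lower in RSeT+DT against primed cells. DESeq2, RLE and both filters kept all counts within 1.5 times. With 1 library left in a group, its spread is taken from the other groups. Every member had at least 193 counts in each library. Reads from host transcripts could not be separated from those of the elements.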
